A study of Mus musculus with 55 samples.

Results

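Livers of Rnf43/Znrf3 mutant mice (R&Z del) were compared with control livers 50 days (d) after the last dose of chronic CCl4. The comparison held 5 libraries of the 23 that have a count file of their own and of the 55 in the whole series, 2 of R&Z del and 3 of controls. Membership followed the sample labels and the study's list of libraries. No measured value entered that rule, but earlier results of these data were known when the libraries and the gene lists were chosen. The question the comparison addresses is how the livers of the 2 genotypes differed after a recovery of 50 d from repeated injury.

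The R&Z del mice carried floxed alleles of both genes and the Alb1-CreERT2 transgene, in which albumin sequences drive a tamoxifen-inducible Cre in hepatocytes, and received tamoxifen as adults. Controls carried the same floxed alleles and received oil in place of tamoxifen, and the labels call them wild-type. All 5 were on the C57BL/6 background and are listed by the study as male and as sequenced in 1 batch. CCl4, which is converted to a toxic radical by pericentral hepatocytes, was injected repeatedly over weeks. The labels give chronic damage for the controls too, and the study's results describe the control littermates as put through the same CCl4 regimen. A sentence of the methods says instead that unrecombined littermates received the oil vehicle only. Labels and results thus give injured controls, and that sentence conflicts with them. Of the 3 controls, 1 is labelled 50 d and the other two are labelled 170 d and are listed by the study for both times. Genotype and recovery time are therefore in part confounded, and the same 3 controls also served the R&Z del livers at 170 d. The labels do not say that each library came from a separate animal, so p-values measure only the spread between libraries. For this comparison that spread was estimated within the groups of all 11 libraries after CCl4, at 4 and 170 d too.

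RNF43 and ZNRF3 are transmembrane ubiquitin ligases that remove Frizzled receptors from the cell surface and so damp WNT signalling, and both genes are themselves WNT targets. In the liver, WNT signals from central vein endothelium hold a pericentral programme in the nearest hepatocytes, with glutamine synthesis and cytochrome P450 enzymes, whereas urea synthesis and gluconeogenesis lie towards the portal vein. After chronic injury, stellate cells and portal fibroblasts lay down collagen, macrophages clear debris, and bile duct cells can expand into the parenchyma.

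The 5 libraries held 23277769 to 29469247 counts assigned to genes, and levels are given below as CPM, that is counts brought to the same total in each library and scaled by edgeR's TMM factors, in the order R&Z del replicates 1 and 2, control labelled 50 d, and controls labelled 170 d replicates 1 and 2 unless said otherwise. CPM is not divided by gene length, so levels were compared between libraries and not between genes. Hepatocyte markers stood high in all 5 libraries, with a summed level of 8 markers between 78075 and 183520 CPM, and the label of the tissue held. The 4 Y-linked genes were detected in all 5 and none was called. Nor was any of 5 red cell genes called by edgeR or DESeq2, with 1 at an unadjusted p under 0.05. Of the red cell genes, 1 was called lower without the library described next.

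Replicate 1 of the controls labelled 170 d stood apart from the other 4 libraries. Its serum amyloid transcript Saa1, an acute phase protein, was at 17012 CPM against 43.4 to 165 CPM in the others, and the summed level of 14 acute phase genes was 109450 CPM against 14309 to 34423 CPM. The neutrophil markers summed to 89.9 CPM in it against 3.09 to 20.8 CPM elsewhere, and the defining neutrophil gene Ly6g was at 0.663 CPM or less in every library. Of the neutrophil markers, none of 3 tested was called with all controls (by edgeR or DESeq2, 0 at an unadjusted p under 0.05), at a median log2 fold change of -1.192, and both tested without this library, S100a8 and S100a9, were called higher, at a median of 2.062. Chymotrypsinogen (Ctrb1), of pancreatic acinar cells, was at 65.0 CPM in it and at no more than 0.0524 CPM in the others, while Cpa1, Pnlip, Amy2a5, Try4 and Cel had no count in any of the 5. On the second principal component of the 5 libraries it lay at 50.44 and the rest between -27.87 and 5.07. Calls, counts and directions below that turn on this library are given with and without it. Without it some called increases were larger, with Sult1e1 at 5.82, Lamc3 at 4.63, Gpnmb at 4.49, Scara3 at 4.79 and Mmp23 at 2.94 on the log2 scale.

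The targeted genes were read first. Rnf43 (mm10, chr11:87663087-87735539) was at 23.6 and 25.5 CPM in R&Z del and at 20.5, 11.6 and 10.9 CPM in the controls. Znrf3 (chr11:5276329-5444847) was at 12.8 and 18.1 CPM in R&Z del and at 9.83, 6.05 and 6.5 CPM in the controls. For both genes every R&Z del library was above every control. The log2 fold change was 0.77 ± 0.32 (SE) for Rnf43, which was not called (adjusted p = 0.121), and 1.05 ± 0.24 for Znrf3, which was called (adjusted p = 0.0184). Znrf3 fell under the fold threshold without replicate 1 of the controls labelled 170 d, at 0.96. The deletion removes exons of the RING domain and leaves the rest of each gene, and counts over whole genes cannot show it.

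Across the genome 11935 genes were tested with edgeR's quasi-likelihood test, and called where the p adjusted by Benjamini-Hochberg was under 0.1 and the log2 fold change exceeded 1 in size. In all 1301 genes were called (10.9%), of which 834 were higher (6.99%) and 467 lower (3.91%) in R&Z del. The median log2 fold change over all genes tested was -0.002. In 21.5% of the genes tested both R&Z del libraries lay above all 3 controls, and in 23.1% below. Without replicate 1 of the controls labelled 170 d, 1586 genes were called, 1068 higher and 518 lower. Against the control labelled 50 d alone, with the spread taken from the other groups, 647 were called, 302 higher and 345 lower. Of those 647 genes, 467 were also among the 1301, which is 72.2% of the first list and 35.9% of the second.

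The largest increases were in genes of varied function. Ntrk2 (chr13:58806472-59133970), which encodes the neurotrophin receptor TrkB, was at 17.7 and 16.7 CPM in R&Z del and at 0.266, 0.124 and 1.62 CPM in the controls. The R&Z del values were close to each other and far above the highest control, and the log2 fold change was 4.75 ± 0.67 (SE, adjusted p = 0.0063). Sult1e1 (chr5:87575968-87591611), the estrogen sulfotransferase, was at 8.79 and 2.40 CPM against 0.0443, 0.249 and 0.157 CPM, with a log2 fold change of 5.16 ± 0.76 (adjusted p = 0.00647). The control levels of Sult1e1 rest on a handful of counts each. Sox4 (chr13:28948919-28953699), a transcription factor of progenitor cells, was at 5.37 and 10.5 CPM against 0.620, 0.580 and 0.419 CPM, a log2 fold change of 3.86 ± 0.34 (adjusted p = 0.00225). Here the 3 controls were nearly equal and the 2 R&Z del libraries differed from each other.

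Several of the 12 largest increases encode proteins of the matrix and its fibres. Adamtsl2 (chr2:27079336-27108981), a secreted protein that binds fibrillin and the latent TGF-beta complex, was at 45.4 and 72.2 CPM in R&Z del and 3.72, 5.22 and 3.77 CPM in controls, with a log2 fold change of 3.79 ± 0.36 (adjusted p = 0.00227). Mfap4, of elastic microfibrils, was at 29.7 and 29.4 CPM against 2.92, 1.57 and 0.262 CPM. Dpt (dermatopontin, which binds decorin) was at 18.4 and 13.7 CPM against 1.68, 1.08 and 0.681 CPM, and Lamc3, a laminin gamma chain, at 10.6 and 25.6 CPM against 1.15, 2.07 and 0.315 CPM. In all 4 of these genes the groups were apart, and the log2 fold changes of the latter 3 were 4.19, 3.79 and 3.91. Mfap4 was not called against the control labelled 50 d alone. Scara3, a scavenger receptor, rose by 3.72, Gpnmb, a glycoprotein of activated macrophages, by 3.81, the glycogen phosphatase subunit Ppp1r3g by 4.03 and the class I-like gene H2-M2 by 4.00 on the log2 scale, and the last 3 were likewise not called against that control.

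The largest decreases included genes of xenobiotic and lipid metabolism. Aqp4, a water channel, was at 0.501 and 0.550 CPM in R&Z del and at 10.8, 5.51 and 12.0 CPM in the controls, with a log2 fold change of -4.15 ± 0.57 (adjusted p = 0.00621). Ugt3a1 (chr15:9279822-9315038), a glycosyltransferase, was at 1.68 and 2.75 CPM against 30.1, 26.2 and 45.7 CPM, a log2 fold change of -3.92 ± 0.44 (adjusted p = 0.00469). Both genes were several-fold below every control. Mup1, a major urinary protein, was at 4.33 and 3.13 CPM against 69.0, 83.3 and 26.2 CPM. Cyp4a14, a fatty acid omega-hydroxylase, was at 6.10 and 37.3 CPM against 124, 280 and 465 CPM, and its R&Z del libraries were unlike each other. Mup genes are near-identical copies, and Ugt1a9 (log2 fold change -3.20) shares exons with the other Ugt1a genes, so both are uncertain as to the member counted. Slc3a1, a subunit of the cystine transporter, fell by 3.53 on the log2 scale (-2.57 without replicate 1 of the controls labelled 170 d), and Fam47e fell by 2.82.

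Replicate 1 of the controls labelled 170 d set the rank of 4 further decreases. Fgl1, a liver-derived fibrinogen-like factor, was at 167 and 156 CPM in R&Z del and at 242, 3526 and 674 CPM in the controls. The chemokine Cxcl1 was at 4.64 and 3.68 CPM against 6.69, 123 and 8.23 CPM, and the phosphate transporter Slc34a2 at 0.501 and 1.24 CPM against 0.841, 26.2 and 2.78 CPM. Their log2 fold changes were -3.20, -3.47 and -3.48 with all controls and -1.47, -0.81 and -0.96 without that library, and the latter 2 were then not called. Obp2a, a lipocalin, was at 64.1 CPM in that library and no higher than 8.91 CPM in the others. Against the control labelled 50 d alone, Slc34a2 stood at 0.083 on the log2 scale, and Fgl1, Cxcl1 and Obp2a were not called.

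**Figure D1:**
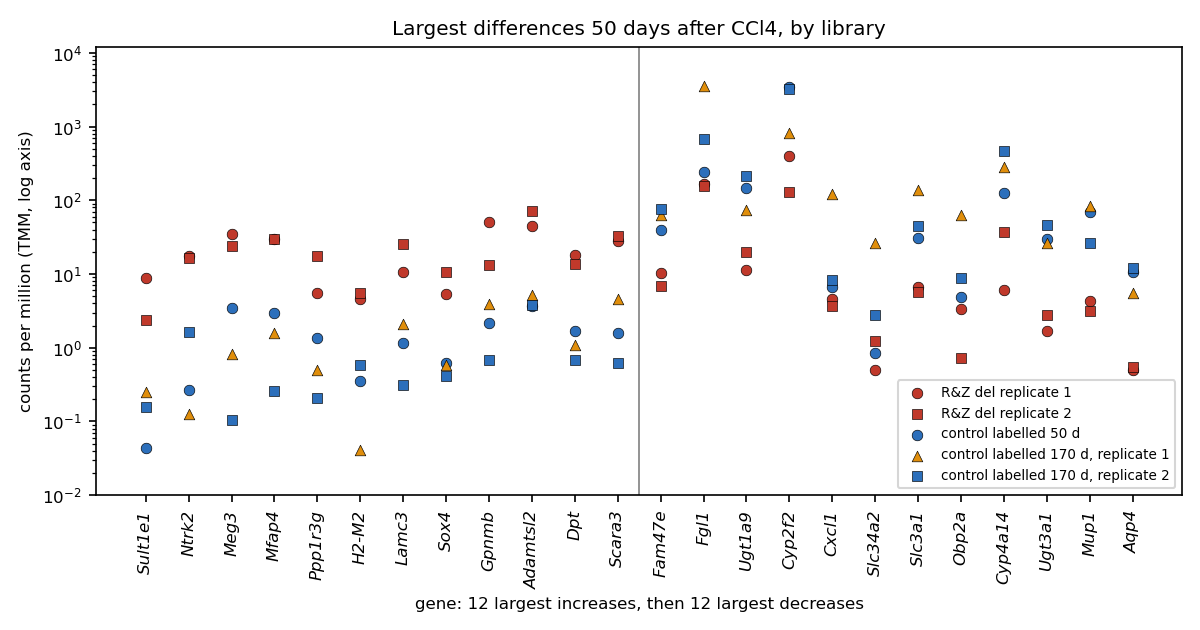
Levels of the 12 genes with the largest increases and the 12 with the largest decreases in the 2 R&Z del libraries (red) and the 3 controls (blue and orange), in TMM-scaled CPM on a log axis. For Aqp4 both red points lie at 0.501 and 0.550 CPM, under all 3 controls, and for Fgl1, Cxcl1, Slc34a2 and Obp2a the orange point, replicate 1 of the controls labelled 170 d, lies far above the other controls.

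WNT feedback and target genes were read from a list of 12, of which 10 were tested. In R&Z del 4 of the 10 were called higher and none lower, and the median log2 fold change was 0.95. Axin2, a scaffold of the destruction complex and a feedback target, was at 5.33 and 7.32 CPM in R&Z del and at 2.39, 0.787 and 2.36 CPM in controls, a log2 fold change of 1.78 ± 0.45 (adjusted p = 0.0279). Lgr5 (chr10:115450314-115587780), the receptor for R-spondins, was at 7.65 and 7.49 CPM against 3.10, 2.11 and 2.83 CPM, a log2 fold change of 1.498 ± 0.27 (adjusted p = 0.0102). For both genes the groups did not overlap, and the R&Z del values of Lgr5 were nearly equal. Tnfrsf19 (Troy), a TNF receptor family member, rose by 1.79 and the transcription factor Sp5 by 1.03 on the log2 scale. Of those not called, Tcf7 stood at 0.98, Myc at 0.92, Tbx3 at 0.68, Nkd1 at 0.53, Notum at 0.35 and Ccnd1 at 0.02. Lef1 and Apcdd1 were at 0.172 CPM or less in each of the 5 libraries and were not tested. Sp5 was not called without replicate 1 of the controls labelled 170 d, which left 3. The count was 7 without the control labelled 50 d, and 1 (Tnfrsf19) against that control alone.

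The promoter of Sp5 is shown because it was the single member of the WNT list whose promoter held the core of the TCF/LEF binding motif, CTTTGA, on either strand. Promoter sequences were taken from RefSeq (GRCm38.p6) and cover 300 bases around the gene start, and 6 of the 12 list members had one. The motif was present in 16.2% of 27025 mouse promoters of that length. Sp5 (chr2:70474673-70474972, plus strand) had 2 matches, in capitals.
Sp5: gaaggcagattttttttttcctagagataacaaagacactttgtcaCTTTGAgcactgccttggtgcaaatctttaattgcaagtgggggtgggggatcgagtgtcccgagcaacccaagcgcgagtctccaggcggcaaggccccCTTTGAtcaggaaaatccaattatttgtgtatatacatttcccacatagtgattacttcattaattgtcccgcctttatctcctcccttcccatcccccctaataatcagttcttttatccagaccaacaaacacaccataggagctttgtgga
The promoters of Axin2 and Tnfrsf19 held no match in this window. A match is a description of letters and no evidence of binding.

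Pericentral genes did not move as a group. Of 16 tested, 2 were called higher and 3 lower, and the median log2 fold change was 0.306. Glul (chr1:153899929-153909723), glutamine synthetase of the innermost pericentral hepatocytes, was at 591 and 397 CPM in R&Z del and at 180, 227 and 114 CPM in the controls. Both R&Z del libraries exceeded all controls and the log2 fold change was 1.51 ± 0.42 (adjusted p = 0.0359). Rhbg, an ammonium transporter of the same cells, rose by 1.80 ± 0.40 on the log2 scale (adjusted p = 0.018). Neither was called against the control labelled 50 d alone, and Glul was also not called without R&Z del replicate 1 or without replicate 2 of the controls labelled 170 d. Ornithine aminotransferase (Oat), Gulo and Lect2 stood at 0.90, 0.78 and 0.77, under the fold threshold, with adjusted p of 0.0295, 0.0342 and 0.0202.

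Pericentral cytochrome P450 genes had values of either sign. Cyp2e1 (chr7:140763819-140774990), the enzyme that activates CCl4, was at 7155 and 6571 CPM in R&Z del and at 9637, 9439 and 10237 CPM in the controls. It lay below all controls by a small margin and was not called, with a log2 fold change of -0.51 ± 0.26 (adjusted p = 0.2). Cyp2c54 was at 141 and 137 CPM against 658, 255 and 629 CPM, and Cyp2c50 at 371 and 377 CPM against 1253, 561 and 1209 CPM. With Cyp2c37 they were the 3 pericentral genes called lower, at -1.89, -1.43 and -1.21 on the log2 scale, and the Cyp2c genes are close copies of each other in a cluster. Cyp1a2 and Cyp2a5 stood at 0.29 and 0.43 and Cyp7a1, the rate-limiting enzyme of bile acid synthesis, at -0.75 ± 0.79, and none of these was called.

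Periportal genes were lower. Of 16 tested, 10 were called lower and 1 higher, with a median log2 fold change of -1.245. Cyp2f2 (chr7:27119955-27133660), the most used periportal P450 marker, was at 400 and 129 CPM in R&Z del and at 3440, 811 and 3202 CPM in the controls, a log2 fold change of -3.23 ± 0.73 (adjusted p = 0.0188). Hal, histidine ammonia-lyase, was at 135 and 54.0 CPM against 300, 261 and 481 CPM, a log2 fold change of -1.88 ± 0.39 (adjusted p = 0.015). Arginase 1 (Arg1), the last enzyme of the urea cycle, was at 497 and 502.1 CPM against 1931, 1244 and 1873 CPM, a log2 fold change of -1.75 ± 0.23 (adjusted p = 0.0056). In each of these genes both R&Z del libraries were below all controls. Ctsc, Hsd17b13, Sds, Gls2, Aldh1b1, Uroc1 and Pigr were also called lower, between -2.59 and -1.03. The other urea cycle genes Asl, Ass1 and Cps1 stood at -0.84, -0.64 and -0.61 and the gluconeogenic genes G6pc and Pck1 at -0.68 and -0.31, none called. The exception was Cdh1 (E-cadherin), at 15.98 and 31.0 CPM against 17.2, 9.94 and 6.76 CPM, which was called higher at 1.06 although replicate 1 of R&Z del was below the control labelled 50 d. Without replicate 1 of the controls labelled 170 d, the periportal count was 10 lower and 0 higher, and against the control labelled 50 d alone 8 lower.

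**Figure D2:**
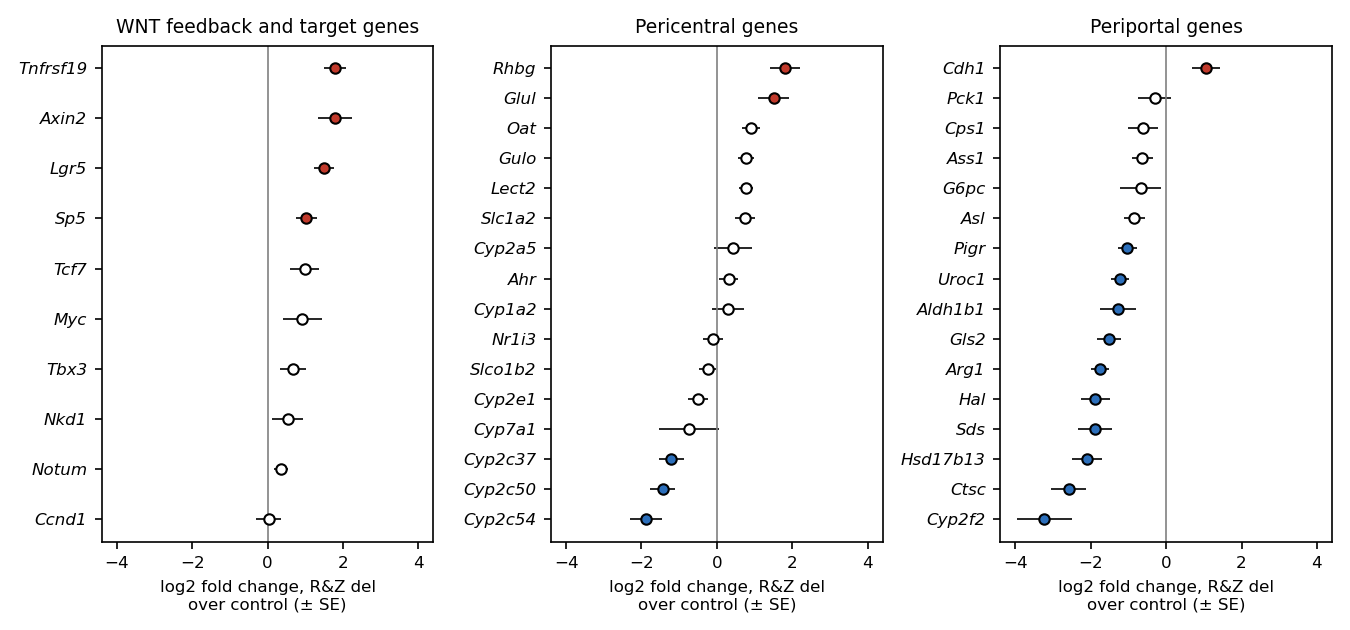
Log2 fold changes of R&Z del over control with their SE for the tested WNT feedback and target genes, pericentral genes and periportal genes. Red points are called higher, blue points called lower and white points not called. Of the periportal genes 10 of 16 are blue, whereas the pericentral panel runs from Cyp2c54 at -1.89 to Rhbg at 1.80.

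Hepatocyte genes that the study named for CCl4 livers were lower, and since the study chose them on these samples they are no independent evidence of direction. Of the 9, 8 were called lower, and the median log2 fold change was -1.104. Albumin (Alb, chr5:90460870-90476602) was at 26551 and 15810 CPM in R&Z del and at 65221, 55866 and 88436 CPM in the controls. Both R&Z del libraries were well below the lowest control, and the log2 fold change was -1.72 ± 0.36 (adjusted p = 0.0156). The complement genes C8a and C8b, the clotting factor gene F9, Baat (bile acid conjugation), Tat (tyrosine degradation), Arg1 and Hal made up the rest of those called, and F7 stood at -0.74 ± 0.23. The count was 6 without replicate 1 of the controls labelled 170 d, which lost C8a and C8b, and 5 without replicate 2 of those controls, without R&Z del replicate 2 or against the control labelled 50 d alone. Among 8 markers of hepatocytes, 6 stood below 0 and 2 above, at a median of -0.724. Alb alone was called, or 12.5% against 10.9% over all genes. The 2 above 0 were Apoa1, of high-density lipoprotein, at 0.87 and Ttr (transthyretin) at 0.11. In bulk liver, fewer cells of a type and less RNA per cell cannot be told apart.

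None of the 10 hepatocyte transcription factors was called, in either direction, and their median log2 fold change was -0.201. At an unadjusted p under 0.05, 1 of the 10 differed, and DESeq2 called 0. Hnf4a was at 199 and 142 CPM against 193, 260 and 190 CPM and Cebpa at 286 and 179 CPM against 203, 222 and 227 CPM, so the groups overlapped. Nr1h4, the bile acid receptor FXR, stood at -0.68 ± 0.19 (adjusted p = 0.0402), under the fold threshold.

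Of the 14 genes for bile acid synthesis and transport, 2 were called lower and none higher, or 14.3% against 10.9% over all genes. The count was 1 lower without replicate 2 of the controls labelled 170 d. The median log2 fold change was -0.288, and -0.163 without R&Z del replicate 1. Slc10a1 (NTCP), which takes bile acids up from blood, was at 328 and 346 CPM in R&Z del and at 998, 647 and 791 CPM in the controls, a log2 fold change of -1.27 ± 0.27 (adjusted p = 0.0154). The groups did not overlap. The other was Baat, at -1.13. Cyp8b1, Cyp27a1 and the export pump Abcb11 stood at -0.06, -0.23 and -0.14.

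Genes of cholesterol synthesis and LDL uptake showed 1 call of 14, Idi1, which was at 0.364 and 0.722 CPM in R&Z del and 3.28, 0.911 and 1.26 CPM in controls. That is 7.14% against 10.9% over all genes, and the list's median was -0.309. Idi1 was not called without the control labelled 50 d, without replicate 2 of the controls labelled 170 d or without R&Z del replicate 1.

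Of 25 tested genes for fatty acid and triglyceride synthesis and droplets, 1 was called higher and 2 lower. That is 12% against 10.9% over all genes, and the median was 0.015. Scd2, a desaturase of fetal liver and many non-hepatocyte cells, was at 32.4 and 81.4 CPM against 4.83, 14.8 and 3.88 CPM, a log2 fold change of 2.85 ± 0.64 (adjusted p = 0.0186). Thrsp, a lipogenic regulator, was at 237 and 429 CPM against 2671, 1011 and 1236 CPM, and Srebf1, the transcription factor that drives fatty acid synthesis, at 85.2 and 75.9 CPM against 254, 140 and 243 CPM. Their groups did not overlap, and they fell by 2.30 and 1.40 on the log2 scale. The synthetic enzymes themselves were not called, with Fasn at -0.17, Scd1 at 0.11 and Acaca at 0.34. Thrsp was not called without the control labelled 50 d or without either R&Z del library, and Scd2 not without R&Z del replicate 2. Scd2 stood at 3.75 without replicate 1 of the controls labelled 170 d.

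Extracellular matrix genes were higher in R&Z del as a list. Of 17 tested, 14 were called higher and none lower, and the median log2 fold change was 1.88. Type III collagen (Col3a1) was at 63.3 and 103 CPM in R&Z del and at 14.9, 25.1 and 6.55 CPM in the controls, a log2 fold change of 2.42 ± 0.53 (adjusted p = 0.0175). Type I collagen (Col1a1) was at 25.4 and 28.2 CPM against 1.42, 10.9 and 1.62 CPM, and the control that stood apart held the 10.9. Its log2 fold change was 2.51 ± 0.75 (adjusted p = 0.0472) with all controls and 4.18 without that library. Col6a3 rose by 3.19 on the log2 scale, and fibrillin (Fbn1) by 2.93. Elastin (Eln) rose by 2.90 and lumican (Lum), a proteoglycan of collagen fibrils, by 2.23. The basement membrane collagens Col4a1 and Col4a2 rose by 1.89 and 2.08. Dcn, Col14a1 and Col5a2 were the 3 not called, at 0.51, 0.83 and 1.72. The count was 14 without replicate 1 of the controls labelled 170 d, with Col5a2 (2.85) gained and Thbs2 lost, and 8 without replicate 2. It was 8 and 6 without R&Z del replicates 1 and 2, and 3 (Col1a1, Lum and Eln) against the control labelled 50 d alone, where the median was 1.87.

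Metalloproteinases and their inhibitors gave 5 called higher and 1 lower of 9 tested. The study named Mmp7, Mmp11, Mmp2 and Mmp23 as differing in its CCl4 livers, these samples among them. Their direction here is therefore no independent evidence. Mmp7 (matrilysin, chr9:7692090-7699585), made by bile duct cells in liver, was at 26.8 and 47.7 CPM in R&Z del and at 0.266, 8.20 and 0.210 CPM in the controls. Both R&Z del values exceeded all controls, and the log2 fold change was 3.65 ± 1.02 (adjusted p = 0.0382) with all controls and 7.29 without replicate 1 of those labelled 170 d. Mmp23 was at 12.8 and 14.6 CPM against 2.21, 4.81 and 1.42 CPM (log2 fold change 2.27 ± 0.43, adjusted p = 0.0115), and the gelatinase Mmp2 at 7.06 and 4.64 CPM against 1.15, 2.03 and 1.21 CPM (1.99 ± 0.67, adjusted p = 0.067). The inhibitors Timp3 and Timp2 rose by 1.87 and 1.23 on the log2 scale. Mmp19 fell by 1.43, from 17.0, 17.0 and 24.9 CPM in controls to 6.97 and 7.56 CPM. Mmp11 was at 2.55 and 2.27 CPM against 0.443, 0.124 and 0.681 CPM and was below the level required for a test. Timp1 was at 17.2 CPM in replicate 1 of the controls labelled 170 d and at 4.10 and 3.54 CPM in R&Z del, and without that library 7 genes were called higher, Timp1 and Mmp12 (macrophage elastase) among them. The count of higher calls was 2 without R&Z del replicate 2 and 2 (Mmp7 and Mmp23) against the control labelled 50 d alone.

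Genes for presentation of antigen on MHC class II, which macrophages, dendritic cells and B cells use, were all called higher, 7 of 7, with a median log2 fold change of 1.725. H2-Eb1 was at 269 and 242 CPM in R&Z del and at 80.0, 37.1 and 57.1 CPM in the controls (log2 fold change 2.14 ± 0.45, adjusted p = 0.0149). The invariant chain Cd74 was at 662 and 584 CPM against 272, 111 and 163 CPM. For both genes the R&Z del libraries were well above the highest control. H2-Ab1, H2-Aa, H2-DMa, H2-DMb1 and the master regulator Ciita rose by 1.31 to 1.80. The H2 genes are a family of similar sequences. All 7 were called without replicate 1 of the controls labelled 170 d as well. Without R&Z del replicate 1 the count was 3 and without replicate 2 of those controls 4, and against the control labelled 50 d alone it was 0, at a median of 1.20.

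Markers of non-parenchymal cells were read beside these lists. Of 14 macrophage markers, 4 were called higher and 1 lower. Trem2 was at 29.4 and 9.31 CPM in R&Z del and at 1.77, 4.64 and 0.681 CPM in controls, and Gpnmb at 50.7 and 13.3 CPM against 2.17, 3.89 and 0.681 CPM, both receptors of scar- and lipid-associated macrophages. Replicate 1 of R&Z del was far above replicate 2 in both, and neither was called without replicate 1. The monocyte genes Cx3cr1 and Ccr2 rose by 2.40 and 1.67 on the log2 scale, whereas Vsig4 of resident Kupffer cells fell by 1.29 and Clec4f, Timd4 and Cd5l stood at -0.60, -1.04 and -0.58. The summed level of the list was 666 and 297 CPM in R&Z del and 292 to 575 CPM in controls, so the groups overlapped. Of 9 stellate cell and myofibroblast markers, 3 were called higher (Loxl1 at 2.97, Pdgfrb at 2.11 and Des at 1.24), and Acta2, of contractile myofibroblasts, was at 19.4 and 4.88 CPM against 5.58, 7.71 and 0.524 CPM. Their sum was 113 and 115 CPM in R&Z del against 50.3 to 66.7 CPM in controls, so the groups did not overlap. The defining markers Tagln, Lox and Thy1 were at 2.004 CPM or less in every library. Loxl1 and Trem2 stood at 4.22 and 3.98 without replicate 1 of the controls labelled 170 d. The stellate count was 1 without R&Z del replicate 2 and 1 (Loxl1) against the control labelled 50 d alone, where the macrophage markers gave 0 higher and 1 lower (Vsig4). The macrophage markers gave 2 higher and 2 lower without R&Z del replicate 1. The part of these cells in the matrix and MHC class II results was not tested.

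Endothelial and lymphocyte markers were read in the same way. Of 14 endothelial markers 3 were called higher, Cd34 at 2.26, Lyve1 at 1.95 and the large vessel marker Vwf at 1.84, while Pecam1, Cdh5, Stab2 and Kdr stood at 0.50, 0.55, 0.70 and 0.27. The central vein WNT ligands Wnt2 and Wnt9b and the R-spondin Rspo3 stood at -0.82, 0.95 and 0.23 with SE of 0.73, 0.81 and 0.64. Of 8 T, NK and B cell markers 2 were called higher, Cd3d at 1.91 and Nkg7 at 1.38. Summed, the lymphocyte list was at 37.98 and 16.8 CPM in R&Z del and at 9.59 to 18.6 CPM in controls, which overlap. The endothelial count was 5 without the control labelled 50 d, and 1 without R&Z del replicate 2, without replicate 2 of the controls labelled 170 d or against the control labelled 50 d alone (Cd34). Of the lymphocyte markers 0 were called without R&Z del replicate 1 or against that control alone, and 1 without replicate 2 of those labelled 170 d.

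**Figure D3:**
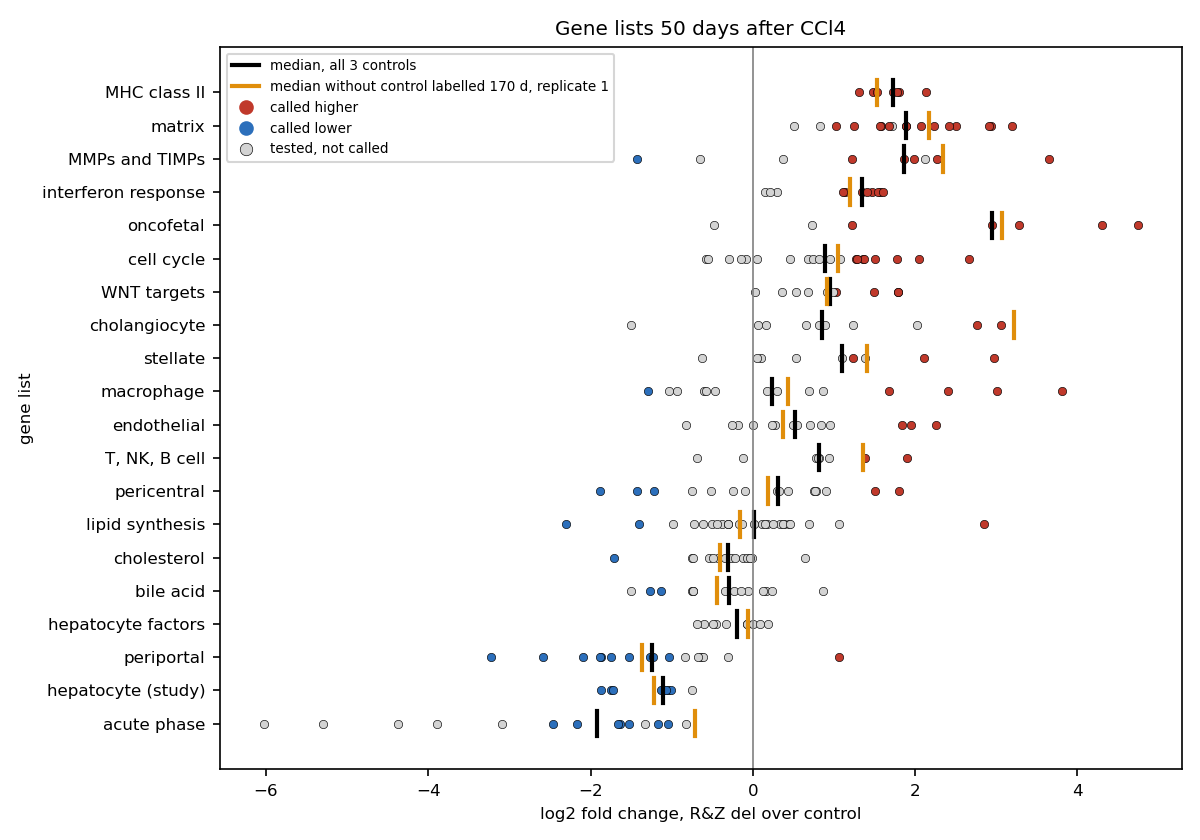
Log2 fold changes of R&Z del over control for the tested members of 20 gene lists, 1 point a gene, red where called higher, blue where called lower and grey where not called. Black bars are list medians with all 3 controls and orange bars those without replicate 1 of the controls labelled 170 d. The bars lie close for MHC class II (1.725 and 1.53), and far apart for cholangiocyte markers (0.854 and 3.22) and acute phase genes (-1.914 and -0.714).

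Cholangiocyte markers depended on the control that stood apart. Of 10 tested, 2 were called higher with all controls and 8 without that library, and the median log2 fold change was 0.854 and 3.22. Spp1 (osteopontin, chr5:104435111-104441053), of bile duct cells and activated macrophages, was at 559 and 869 CPM in R&Z del and at 102, 163 and 51.5 CPM in the controls. It was called either way, at 2.76 ± 0.46 (adjusted p = 0.00901) with all controls, and so was Krt23 at 3.06. Krt19, the keratin that defines the ducts, was at 15.1 and 10.1 CPM in R&Z del and at 1.33, 104 and 1.36 CPM in the controls. The R&Z del libraries lay between the controls, and the log2 fold change was -1.50 ± 1.59 with all controls and 3.26 without replicate 1 of those labelled 170 d. Epcam was at 17.1 and 21.7 CPM against 1.68, 11.6 and 0.839 CPM, and Krt7 at 8.70 and 9.55 CPM against 0.531, 15.95 and 0.786 CPM. Sox9, a transcription factor of the ducts, stood at 1.23. The list summed to 661 and 984 CPM in R&Z del and to 125, 369 and 85.2 CPM in controls. Cftr was at 0.319 CPM or less throughout.

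Acute phase genes, which hepatocytes make in response to inflammatory cytokines, were likewise set by that library. With all controls 7 of 14 were called lower and none higher, and without it 5 were called lower and 4 higher. Saa1 was at 165 and 126 CPM in R&Z del and at 43.4, 17012 and 56.7 CPM in the controls, and Lcn2 at 64.3 and 38.5 CPM against 9.52, 3170 and 13.1 CPM. Both were above the other two controls and far below the third. The genes that were called lower either way were C-reactive protein (Crp), the fibrinogen chains Fga and Fgg, Itih4 and the pentraxin Apcs. Fga was at 3592 and 2603 CPM against 5661, 13764 and 10051 CPM (log2 fold change -1.67 ± 0.36, adjusted p = 0.0168), and Crp at 384 and 336 CPM against 715, 743 and 776 CPM (-1.05 ± 0.17, adjusted p = 0.00901). In Crp the 3 controls were close to each other and apart from R&Z del. Against the control labelled 50 d alone none of the 14 was called, with a median of -0.49.

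**Figure D4:**
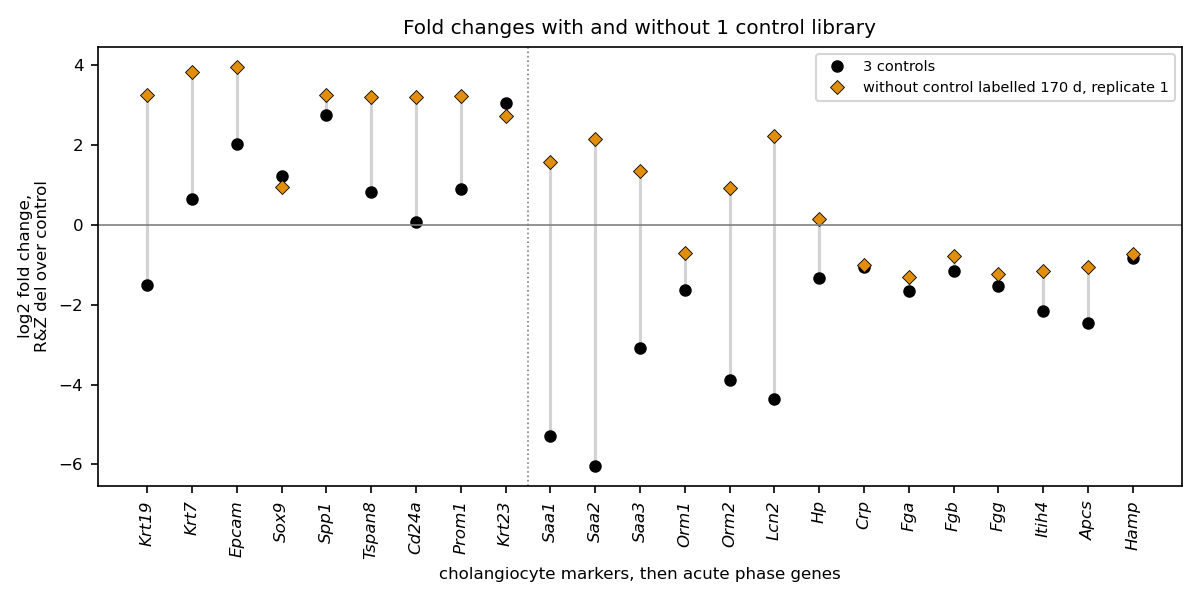
Log2 fold changes of cholangiocyte markers and acute phase genes with all 3 controls (black) and without replicate 1 of the controls labelled 170 d (orange), joined by a line for each gene. Krt19 moves from -1.50 to 3.26 and Saa1 from -5.29 to 1.58, whereas Crp moves from -1.05 to -1.01.

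Interferon-stimulated genes were higher. Of 11 tested, 8 were called higher and none lower, and the median log2 fold change was 1.339. Isg15 (chr4:156199424-156200818), a ubiquitin-like protein induced by interferon, was at 25.4 and 22.4 CPM in R&Z del and at 8.59, 10.03 and 7.34 CPM in the controls. The groups were apart, and the log2 fold change was 1.46 ± 0.17 (adjusted p = 0.00469). Ifit1 (chr19:34640889-34650009), which binds viral RNA, was at 10.7 and 12.0 CPM against 4.56, 3.19 and 3.67 CPM, a log2 fold change of 1.57 ± 0.24 (adjusted p = 0.00721). Usp18, the protease that removes ISG15, rose by 1.55. Rsad2 (viperin), Ifit3, Oasl2, Ifi44 and the chemokine Cxcl10 rose by 1.11 to 1.60. Irf7, which amplifies the response, stood at 0.30 and Zbp1 at 0.21. Without replicate 1 of the controls labelled 170 d the count was also 8, with Zbp1 (1.09) gained and Cxcl10 (0.99) lost. Ifit genes are similar copies in a cluster. The count was 4 without replicate 2 of the controls labelled 170 d, 3 without R&Z del replicate 2 and 2 (Isg15 and Ifit1) against the control labelled 50 d alone.

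Promoters of 4 of the genes called higher are shown because these windows hold the interferon-stimulated response element, read as GAAA, any 2 bases and GAAA again on either strand, which interferon-activated transcription factors are known to bind. Of the 8 called, 7 had a RefSeq promoter and 5 of those held the motif. Over the whole list of 12, 8 had a promoter and 5 held it, and it was present in 3.49% of the 27025 promoters. The list was made of known interferon-stimulated genes, so its share says nothing on which of them were called. The windows are 300 bases in GRCm38.p6, written from 5′ to 3′ of the gene's strand, with the matches in capitals: Isg15 at chr4:156200769-156201068 (minus strand), Ifit1 at chr19:34640639-34640938 (plus), Ifit3 at chr19:34583279-34583578 (plus) and Rsad2 at chr12:26456403-26456702 (minus).
Isg15: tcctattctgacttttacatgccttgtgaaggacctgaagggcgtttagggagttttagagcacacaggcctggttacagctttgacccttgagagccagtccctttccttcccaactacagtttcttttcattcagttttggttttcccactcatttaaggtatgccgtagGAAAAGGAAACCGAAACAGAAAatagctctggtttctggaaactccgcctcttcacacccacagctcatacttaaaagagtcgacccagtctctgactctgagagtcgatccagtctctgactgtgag
Ifit1: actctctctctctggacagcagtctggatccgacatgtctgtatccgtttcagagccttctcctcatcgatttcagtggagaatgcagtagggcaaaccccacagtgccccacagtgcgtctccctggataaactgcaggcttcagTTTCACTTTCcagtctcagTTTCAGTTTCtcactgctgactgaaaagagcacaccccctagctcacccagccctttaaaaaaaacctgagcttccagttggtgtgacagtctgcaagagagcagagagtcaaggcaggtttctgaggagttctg
Ifit3: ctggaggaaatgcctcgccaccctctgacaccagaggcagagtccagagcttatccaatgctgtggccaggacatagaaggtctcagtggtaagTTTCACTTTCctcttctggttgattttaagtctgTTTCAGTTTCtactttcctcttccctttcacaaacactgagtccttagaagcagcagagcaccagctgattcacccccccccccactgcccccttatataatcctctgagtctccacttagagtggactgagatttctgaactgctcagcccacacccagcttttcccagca
Rsad2: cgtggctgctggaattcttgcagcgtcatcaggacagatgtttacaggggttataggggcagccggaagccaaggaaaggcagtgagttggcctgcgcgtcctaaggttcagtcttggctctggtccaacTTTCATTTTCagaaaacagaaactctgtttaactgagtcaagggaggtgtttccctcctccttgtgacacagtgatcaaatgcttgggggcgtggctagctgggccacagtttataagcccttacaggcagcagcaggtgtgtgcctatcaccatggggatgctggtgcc
Isg15 held 3 overlapping matches, Ifit1 and Ifit3 2 each and Rsad2 1, as did Cxcl10, while the windows of Oasl2 and Ifi44 held none. Binding was not measured.

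Cell cycle genes gave 8 called higher and none lower of 20 tested, with a median log2 fold change of 0.883. The mitotic kinase Cdk1 was at 5.28 and 5.29 CPM in R&Z del and at 1.68, 2.20 and 2.25 CPM in the controls (log2 fold change 1.37 ± 0.27, adjusted p = 0.0131). Birc5 (survivin) was at 3.51 and 4.78 CPM against 1.42, 1.82 and 1.10 CPM (1.51 ± 0.29, adjusted p = 0.0112), and in both the groups were apart. Cdc20, Ccnb2, Top2a, Bub1b, Ube2c and Mcm6 were the others. Mki67 was at 2.19 and 3.54 CPM against 0.753, 2.78 and 0.472 CPM, which overlap, and its log2 fold change was 1.08 ± 0.60 (adjusted p = 0.237) with all controls and 2.25, called, without replicate 1 of those labelled 170 d. The S phase genes Pcna, Tyms, Rrm2, Mcm2 and Mcm4 stood between -0.57 and 0.05. All these levels were low. Top2a stood at 2.66 with and 4.25 without that library. The count was 9 without it, 4 and 3 without R&Z del replicates 1 and 2, and 2 (Cdk1 and Birc5) against the control labelled 50 d alone.

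Oncofetal and imprinted genes of liver cancer gave 5 called higher of 7 tested, with a median of 2.946. Alpha-fetoprotein (Afp, chr5:90490714-90508907), the secreted protein of fetal liver, was at 5.92 and 24.0 CPM in R&Z del and at 2.79, 2.15 and 0.839 CPM in controls. Replicate 2 was far above replicate 1, both were above all controls, and the log2 fold change was 2.95 ± 0.56 (adjusted p = 0.0114). Afp was not called against the control labelled 50 d alone. The maternally expressed non-coding RNA Meg3 (chr12:109540996-109571729) was at 34.8 and 24.0 CPM against 3.45, 0.829 and 0.105 CPM. Rian, its neighbour in the same imprinted cluster, was at 2.37 and 1.79 CPM against 0.266, 0.290 and 0.0524 CPM, and they rose by 4.30 and 3.28 on the log2 scale. Counting was without strand, so reads of Meg3 and Rian cannot be told apart from antisense transcripts there. H19, of another imprinted locus, was at 2.28 and 3.16 CPM against 0.0443, 0.0829 and 0.0524 CPM and was too low over the other groups to be tested. Ntrk2 (above) and the guidance receptor Robo1 (1.22) completed the called members, while Gpc3 and Golm1 stood at 0.73 and -0.48. Without replicate 1 of the controls labelled 170 d, Gpc3 stood at 2.07 and was called, which made 6, and Golm1 stood at 1.72 and was not called. The count was 3 without R&Z del replicate 2 and 3 (Ntrk2, Meg3 and Rian) against the control labelled 50 d alone.

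Of 15 genes for p53 targets, cell cycle inhibitors and apoptosis, 3 were called higher and 1 lower. The study named Casp12 and Pycard as differing in its CCl4 livers, these samples among them, so their direction here is no independent evidence. Phlda3, a p53 target that inhibits AKT, was at 9.47 and 10.3 CPM in R&Z del and at 1.82, 2.07 and 1.57 CPM in the controls, a log2 fold change of 2.43 ± 0.20 (adjusted p = 0.00225). Its groups were far apart and it was called under every alternative tried. Casp12 and the inflammasome adaptor Pycard rose by 1.83 and 1.20, and the death receptor Fas fell by 1.02 on the log2 scale. Fas stood at -0.74 and was not called without replicate 1 of the controls labelled 170 d, which left 3 higher and 0 lower. Casp12 was not called without R&Z del replicate 2 and Pycard not without R&Z del replicate 1, neither was called without replicate 2 of those controls, and against the control labelled 50 d alone Phlda3 was the 1 member called. Other p53 targets did not move with Phlda3, with Mdm2 at 0.22, Ccng1 at -0.23 and Zmat3 at 0.23. The cell cycle inhibitor Cdkn1a (p21) was at 8.61 and 17.4 CPM against 4.07, 2.90 and 23.5 CPM, so the groups overlapped (0.37 ± 0.71, adjusted p = 0.745). Gdf15 was at 160 CPM in replicate 1 of the controls labelled 170 d and between 5.71 and 13.2 CPM in the other libraries.

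Of 14 NRF2 targets, glutathione S-transferases and metallothioneins, 2 were called higher and 1 lower. Gstm2 was at 332 and 281 CPM in R&Z del and at 87.2, 84.3 and 90.2 CPM in the controls (log2 fold change 1.81 ± 0.17, adjusted p = 0.00227), and Gstm3 at 486 and 378 CPM against 98.9, 35.9 and 102 CPM (2.45 ± 0.37, adjusted p = 0.00658). Both groups of values were far apart. The Gstm genes are near copies, and Gstm1 stood at 0.89 ± 0.32. The NRF2 targets Nqo1, Srxn1 and Gclc stood at 0.27, 0.34 and -0.10, and Gclm, a subunit of the enzyme that starts glutathione synthesis, fell by 1.15. Gclm stood just under the fold threshold, at -0.997, without replicate 1 of the controls labelled 170 d and at -0.90 against the control labelled 50 d alone, and was then not called. The metallothionein Mt1 was at 81.3 and 72.7 CPM against 29.8, 1768 and 19.2 CPM, and without the library at 1768 it was called higher at 1.69. The list then held 4 called higher and 0 lower.

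Sex-biased liver genes were read because all 5 libraries are listed as male. Of 9 male-biased genes 1 was called (11.1%, against 10.9% over all genes), and the median was -0.342. It was Mup20, called higher, at 3928 and 4520 CPM against 2660, 1304 and 2238 CPM. Of 4 tested female-biased genes, the testosterone hydroxylase Cyp2a4 was called higher at 2.74 ± 0.98 and the steroid hydroxylase Cyp17a1 lower at -2.37 ± 0.73. Cyp17a1 was at 4.78 and 9.07 CPM in R&Z del and at 46.5, 54.1 and 7.39 CPM in the controls, so its groups overlapped. Neither Mup20 nor Cyp2a4 was called without replicate 1 of the controls labelled 170 d.

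The study's damage signature of 92 genes holds those it found upregulated in mutant livers both 4 d after CCl4 and 21 d after partial hepatectomy. Its members were thus chosen for being higher in mutants of this series, though at other times. Their direction at 50 d is therefore no independent evidence. At 50 d, 61 of its genes were tested, of which 20 were called higher and none lower, and the median log2 fold change was 0.981. Those with the largest differences were Fbn1 (2.93), the growth factor gene Tgfb3 (2.86), Adamts2, a procollagen peptidase (2.63), Dpysl2 (2.501), the glutamate receptor subunit Gria3 (2.34, not called without replicate 1 of the controls labelled 170 d) and Dkk3 (2.22). The DNA ligase gene Lig1 was at 7.70 and 6.53 CPM in R&Z del and at 2.35, 2.53 and 1.83 CPM in controls, and the amino acid transporter Slc1a4 at 16.7 and 22.3 CPM against 4.74, 7.37 and 8.33 CPM. Their groups did not overlap. Without replicate 1 of the controls labelled 170 d, 27 were called higher and 1 lower. The count was 12 without replicate 2 of those controls, 10 without R&Z del replicate 2 and 9 against the control labelled 50 d alone.

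The genotype difference at 50 d was next set beside that at 4 d, which used other libraries on both sides, 2 of R&Z del and 2 of controls. The difference of the differences was called for 536 genes (4.49%). Of the 5 genes with the smallest p-values, 4 were not called at 50 d and were low in the controls at 4 d. AA465934 was at 0.285 and 0.247 CPM in the 2 controls at 4 d and between 7.18 and 10.8 CPM in the other 9 libraries after CCl4, and Eif5al3-ps and Wdfy1 were low in the same pair of controls. Cyp2c38 was at 3.60 and 5.30 CPM in that pair and between 27.3 and 203 CPM in the other 9. Neurl2, a ubiquitin ligase adaptor, was at 12.3 and 14.8 CPM in R&Z del and at 4.96, 4.23 and 4.09 CPM in controls at 50 d, and at 2.96 and 2.88 CPM against 7.46 and 6.28 CPM at 4 d. Its log2 fold change was 1.61 at 50 d and -1.23 at 4 d, a difference of 2.85 ± 0.31 (adjusted p = 0.00336). Neurl2 thus differed in opposite directions at the 2 times.

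Genes named above that differed between 4 and 50 d included Cyp2f2, Dpt, Scara3 and Ppp1r3g. Cyp2f2 was at 13.1 and 24.8 CPM in R&Z del and 3213 and 2588 CPM in controls at 4 d, a log2 fold change of -7.26 ± 0.91 against -3.23 ± 0.73 at 50 d, and the difference of 4.03 was called (adjusted p = 0.07). Dpt stood at 0.97 at 4 d and 3.79 at 50 d, a difference of 2.82 (adjusted p = 0.0743), and Scara3 at 6.96 and 3.72. Ppp1r3g stood at -1.89 at 4 d and 4.03 at 50 d, a difference of 5.92 ± 1.20 (adjusted p = 0.045). Glul was at 49.4 and 39.4 CPM in R&Z del and 57.3 and 21.4 CPM in controls at 4 d, a log2 fold change of 0.18 ± 0.46, and its difference from 50 d, 1.33 ± 0.62, was not called. For Spp1 the log2 fold changes were 4.95 ± 0.58 and 2.76 ± 0.46, and that difference was not called either (adjusted p = 0.135). None of the matrix and none of the MHC class II genes was called in this test by edgeR or DESeq2 (1 and 0 at an unadjusted p under 0.05), and their median log2 fold changes at 4 and 50 d were 1.672 and 1.88 for matrix and 2.101 and 1.725 for MHC class II genes.

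R&Z del livers at 50 d were compared with R&Z del livers at 170 d, 2 libraries each. Replicate 2 of those at 170 d held 61.2 CPM of Ctrb1 and 71.8 CPM of Krt19, against 0.0729 and 4.70 CPM in replicate 1, while Saa1 was at 62.7 and 59.6 CPM. Since the controls were the same libraries at both times, this is also the difference of the genotype effects. Of the genes tested 958 were called (8.03%), 666 higher and 292 lower at 50 d. The transcriptional repressor Hbp1 (chr12:31926452-31950530) was at 2.64 and 2.58 CPM at 50 d and at 19.98 and 17.2 CPM at 170 d, a log2 difference of -2.83 ± 0.29 (adjusted p = 0.0228), and the controls were at 14.3, 9.36 and 16.3 CPM. R&Z del livers at 50 d were thus below all of these, and R&Z del livers at 4 d were also low, at 4.01 and 5.44 CPM. The semaphorin receptor Plxnb1 was at 47.9 and 41.2 CPM at 50 d and 10.9 and 8.51 CPM at 170 d, a difference of 2.20 ± 0.28 (adjusted p = 0.0233), and the kinase gene Map4k4 at 8.06 and 10.3 CPM against 1.68 and 2.14 CPM. The controls held 21.5, 22.6 and 11.9 CPM of Plxnb1 and 2.13, 2.28 and 1.68 CPM of Map4k4. Dph1, of diphthamide synthesis, differed by -1.30 on the log2 scale, being lower at 50 d. With replicate 1 of R&Z del at 170 d left out, edgeR called 0 genes, with 1812 at an unadjusted p under 0.05. With replicate 2 left out it called 367, of which 147 were higher and 220 lower at 50 d.

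By list, 12 of the 17 matrix genes were called in this comparison, all higher at 50 d. Their median genotype effect was 1.88 at 50 d and 0.142 at 170 d. Col6a3 was at 16.5 and 24.0 CPM at 50 d and at 3.24 and 2.94 CPM at 170 d in R&Z del (difference 2.71 ± 0.63, adjusted p = 0.043), and Eln at 6.33 and 8.97 CPM against 0.729 and 1.72 CPM (2.64 ± 0.67, adjusted p = 0.049). In both genes R&Z del at 170 d lay within or near the range of the controls. The stellate cell markers gave 4 higher of 9 and the macrophage markers 3 higher of 14, Trem2 among them (3.02 ± 0.74, adjusted p = 0.0461). Of the MHC class II genes edgeR called 1 of 7, higher at 50 d, while DESeq2 called 6 and 6 had an unadjusted p under 0.05. Their median genotype effect was 1.725 at 50 d and 0.403 at 170 d. Afp was higher at 50 than at 170 d by 2.30 ± 0.62 (adjusted p = 0.0552) and Spp1 by 1.65 ± 0.51 (adjusted p = 0.072). Of the pericentral genes 4 were called, all lower at 50 d, with Cyp2e1 at 7155 and 6571 CPM against 17509 and 16872 CPM (-1.32 ± 0.29, adjusted p = 0.0355). None of the 9 hepatocyte genes named by the study was called, and Alb was at 23800 and 18826 CPM at 170 d, a difference of -0.009 ± 0.37. At an unadjusted p under 0.05, 3 of the 9 differed, and DESeq2 called 0.

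The genotype difference at 50 d was also set beside that of undamaged livers, in a fit of 16 libraries with 2 R&Z del at 7 months after deletion and 3 controls, 2 at 3 and 1 at 7 months. The time since deletion therefore differed along with the injury and cannot be told apart from it. The difference of the differences was called for 616 of 11769 genes (5.23%). Hbp1 stood at -2.35 at 50 d and 0.39 in undamaged liver, a difference of -2.72 ± 0.36 (adjusted p = 0.0327), and the adhesion molecule gene Alcam at 1.35 and -0.27, a difference of 1.64 ± 0.23 (adjusted p = 0.0327). Alcam was at 54.7 and 72.6 CPM in R&Z del at 50 d, and at 24.4 and 24.4 CPM in undamaged R&Z del, with the controls after CCl4 at 24.8, 25.9 and 24.2 CPM. The R&Z del livers at 50 d were above all of these, and so were R&Z del livers at 4 d, at 70.9 and 86.1 CPM. Dph1, the nucleotide sugar enzyme gene Tgds and the arsenic methyltransferase gene As3mt stood lower by 1.70, 1.51 and 1.45 in this difference. Cyp2e1 was at 31245 and 21939 CPM in undamaged R&Z del and at 9089, 9868 and 11227 CPM in undamaged controls, a log2 fold change of 1.42 ± 0.24 against -0.51 at 50 d, and the difference of -1.91 ± 0.35 was called (adjusted p = 0.0556). The count of 616 rested on single libraries. Without replicate 1 of the undamaged R&Z del edgeR called 0, with 1409 genes at an unadjusted p under 0.05. It called 2 without R&Z del replicate 2 at 50 d or without replicate 2 of the controls at 3 months, and 12 without replicate 2 of the controls labelled 170 d.

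Glul was at 558 and 568 CPM in undamaged R&Z del and at 113, 114 and 141 CPM in undamaged controls, a log2 fold change of 2.21 ± 0.38, and its difference from 50 d was -0.68 ± 0.53 (not called). Alb stood at -1.60 ± 0.34 undamaged and -1.72 at 50 d, with a difference of -0.09 ± 0.45 in the joint fit, and Gstm3 at 2.52 and 2.45. Matrix-related Mfap4 (3.81), Adamtsl2 (2.77), Lum (2.69), Timp3 (2.34) and Spp1 (2.32) were called with a larger difference after CCl4, as was Sox4 (3.12). The median genotype effect of the matrix list was -0.038 in undamaged liver and 1.88 at 50 d, that of the MHC class II genes 0.061 and 1.725, that of the periportal genes -1.243 and -1.245, and that of the pericentral genes 1.366 and 0.306. In the test of the difference, edgeR called 3 of 17 matrix genes (all higher), 0 of 7 MHC class II genes, 1 of 16 periportal and 3 of 16 pericentral genes (all lower). DESeq2 called 12 matrix, 4 MHC class II, 1 periportal and 7 pericentral genes. At an unadjusted p under 0.05 the counts were 12, 5, 2 and 9.

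**Figure D5:**
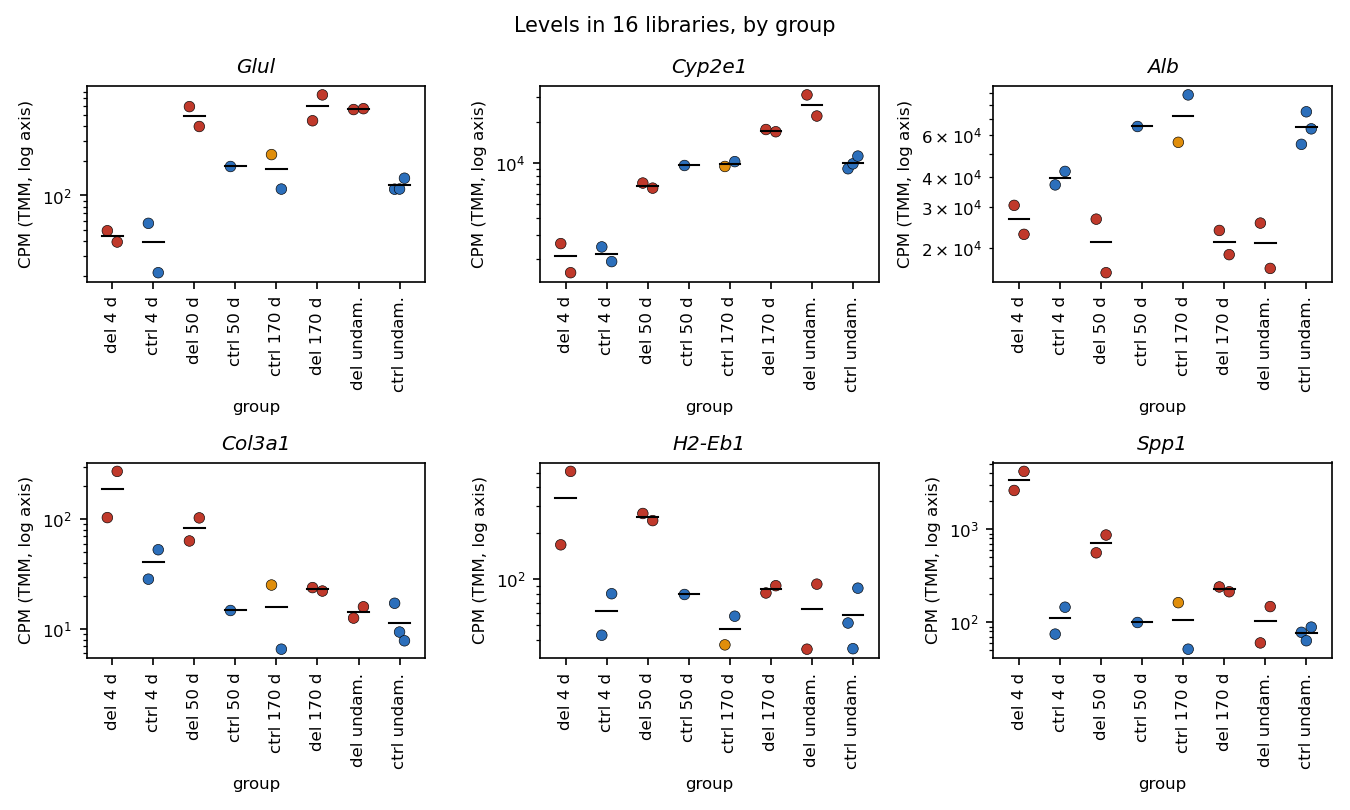
TMM-scaled CPM of 6 genes in 16 libraries by group on log axes, with R&Z del in red, controls in blue, replicate 1 of the controls labelled 170 d in orange, and bars at group means. For Col3a1 and H2-Eb1 the R&Z del livers at 4 and 50 d lie above the other groups. For Alb the R&Z del livers at 4, 50 and 170 d and undamaged all lie below their controls. For Cyp2e1 the R&Z del livers at 50 d (7155 and 6571 CPM) lie below those at 170 d.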

How the data were processed

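Each library was a Smart-Seq2 preparation of adult mouse liver RNA, read as 50-base single reads. Per the labels and file headers, the authors trimmed reads with Trim Galore, aligned them to mm10 with STAR 2.5.0a and counted them over exons without regard to strand with featureCounts 1.5.0-p3. The deposited values are raw counts per gene, without normalization. The libraries compared and all gene lists were chosen with earlier results of these data known.

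From the counts, edgeR 4.0.16 (R 4.3.3, TMM factors) was fitted to 11 libraries after CCl4 in 5 groups, the 3 late controls forming 1, over genes with CPM above 1 in at least 6 libraries. Differences were tested with the quasi-likelihood test and Benjamini-Hochberg adjustment, and calls required an adjusted p under 0.1. Comparisons of 2 groups also required a log2 difference larger than 1 in size, and differences of differences had no such limit. The comparison with undamaged liver used 16 libraries and CPM above 1 in at least 8. The steps were tested on simulated data. Named by rule were the 12 largest increases and 12 largest decreases among called genes with a mean of at least 5 CPM in the higher group, the 4 called members of each list with the smallest adjusted p, a set of genes always given (the targeted genes, main zonation, injury and hepatocyte genes), and the 5 smallest adjusted p-values of each of the other 3 comparisons. Other list members named in the text were chosen after their values were seen.

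The alternatives were DESeq2 1.42.0 and its size factors, a likelihood ratio test, other filters, a replicate block, fits to the 5 libraries alone or to either kind of control alone, other thresholds, and leaving out each library. Deviations of same-numbered libraries correlated at 0.333 between the genotypes at 4 d and at -0.343 between those labelled 170 d. Other pairs of groups lay from -0.229 to 0.133. The numbers were not taken to pair libraries in the main fit. In all, 7 libraries whose labels conflict entered no comparison, and a few genes covered by the rule or the lists are not reported here. Depth limits genes near 1 CPM most, and standard errors cover counting and library spread only.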

Additional observations from a re-analysis of the deposited data

Results flagged for a closer look

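These results were set apart because the genotype difference at 50 d differed from that at another time or from undamaged liver by a test of the difference itself. Values are differences of log2 fold changes, 50 d minus the other, with edgeR's quasi-likelihood test.

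Against 4 d, 536 genes differed. In AA465934 (-5.26), Eif5al3-ps (-3.90), Wdfy1 (-2.51) and Cyp2c38 (-3.68) the difference at 50 d was smaller or lower than at 4 d, and in Neurl2 (2.85) it was higher. Among the genes named for 50 d, the value was 5.92 for Ppp1r3g, 2.82 for Dpt, 4.03 for Cyp2f2, 3.13 for Mup20, 3.95 for Lyve1 and 1.65 for Map4k4. It was -3.25 for Scara3, -2.39 for Ugt3a1, -8.68 for Slc34a2, -4.54 for Ugt1a9 and -2.55 for Fam47e. At 50 d the fold change of Slc34a2 was set largely by replicate 1 of the controls labelled 170 d, as given above. Neither Slc34a2 nor Mup20 was called at 50 d without that library, where Mup20 stood at 0.83. It was -1.61 for Srebf1, -4.47 for Rian and -1.30 for Mmp19.

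Against undamaged liver, 616 genes differed. The smallest p-values belonged to Hbp1 (-2.72), Alcam (1.64), Dph1 (-1.70), Tgds (-1.51) and As3mt (-1.45). The value was 3.81 for Mfap4, 3.12 for Sox4, 2.77 for Adamtsl2, 2.69 for Lum and 2.34 for Timp3. It was 2.44 for Dpysl2, 2.32 for Spp1, 2.58 for Map4k4 and 1.59 for Plxnb1. It was -3.77 for Ugt3a1, -3.32 for Ugt1a9, -2.29 for Fam47e, -1.77 for Cyp2c37 and -2.67 for Cyp2c38. It was -1.16 for Slc10a1, -3.36 for Thrsp and -1.91 for Cyp2e1.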

How the results depend on the processing

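Of 114 named genes called at 50 d, 48 were called under every alternative that tested them, and of 2705 values of named genes under the alternatives 2434 kept direction and side of the threshold, 244 lost the call, 11 gained it and 16 changed sign. The count of 1301 became 2450 (1635 higher, 815 lower) with no filter on low counts, 790 (473 higher) with the 5 libraries alone, 647 (302 higher) with the control labelled 50 d alone, and 3201 (1463 higher, 1738 lower) with any fold change. Leaving out each library gave 913 to 1586, of which 543 to 1068 were higher and 334 to 536 lower, and the lowest higher counts were 543 without replicate 2 of the controls labelled 170 d and 549 without R&Z del replicate 2. The 536 genes that differed from 4 d became 1705 with no filter, 972 with the likelihood ratio test and 1109 with DESeq2, and 74 to 983 with a library left out. The 958 against R&Z del at 170 d became 2059 with no filter and 0 to 1115 with a library left out. The 616 against undamaged liver became 1919, 1242 and 1678 with no filter, the likelihood ratio test and DESeq2, and 0 to 2335 with a library left out. With the replicate number as a block the counts were 1213, 466 and 852, each within 1.5 times. Values that changed sign were Slc34a2 (0.083 with the control labelled 50 d alone), Krt19 (3.24 with that control alone, and -2.07 to 3.26 with a library left out, the highest without replicate 1 of those labelled 170 d), Cdkn1a (-0.0066 with the controls labelled 170 d alone, and -0.189 to 1.91 with a library left out) and Wdfy1 (0.032 with the block, 0.015 and 0.012 with the 5 libraries or the controls labelled 170 d alone, and -0.0915 to 0.102 with a library left out). The causes were not tested. Depth limits genes near 1 CPM, such as Sult1e1 in controls.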

Other observations

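Of the libraries whose labels conflict, 3 are labelled as damaged and entered no comparison. They are the library titled KO at 3 months, the library titled WT at 7 months, and the library titled KO 50 d after CCl4 with a time point of 7 months, and values are given in that order. Glul was at 147, 671 and 172 CPM, and Alb at 101300, 27832 and 80016 CPM. Cyp2e1 was at 15201, 18528 and 10167 CPM, and Mmp7 at 0.0655, 9.83 and 0.0941 CPM. Axin2 was at 1.93, 6.15 and 1.44 CPM.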
